A study of Mus musculus with 8 samples.

Results

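The genes followed here, 10 in number, are known to stand higher in old than in young mouse haematopoietic stem cells: Selp, Clu, Nupr1, Aldh1a1, Ehd3, Jam2, Sult1a1, Gpr183, Fhl1 and Neo1. They were taken by symbol as a fixed list, and all 10 had a row among the 23284 gene symbols of the deposited files. Of these, 9 reached 1 FPKM (mapped fragments scaled to transcript length and library size) in at least 2 libraries and were tested with 11931 genes in all. Neo1 stayed below 1 FPKM in every library and is given by its values.

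The cells were sorted from the marrow of femurs and tibias as Lineage- Sca-1+ c-Kit+ (LSK) cells, the fraction that holds blood stem cells and multipotent progenitors. All donors were C57BL/6 males of 12 to 13 weeks that had been fasted for more than 14 hours before each injection, so no old animals were among the groups. The glucose group (2 libraries) received glucose at 2 g/kg into a vein for 7 days. The glucose+lipid group (2 libraries) received the same glucose plus a 20% lipid emulsion at 6 mL/kg, and the controls (4 libraries) received phosphate-buffered saline (PBS). Marrow was taken on day 8. The labels call the libraries biological replicates without saying whether one mouse or a pool gave each, so p-values measure the spread between libraries only. The sample letters H and I recur in glucose+lipid and in PBS replicates 1 and 2 (called PBS H/I here), which were set against each other. PBS replicates 3 and 4 (PBS J/K) were set against glucose. This pairing is an inference from names, and a further comparison took the 4 treated libraries against the 4 PBS libraries.

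With age, blood stem cells grow in number, hold less of their power to rebuild blood, and lean towards platelet and myeloid output at the expense of lymphoid output. A recurring set of transcripts rises in them, and the genes followed here belong to it. They share no single pathway: the set mixes adhesion molecules and receptors of the cell surface, a secreted chaperone, a stress-response regulator, metabolic enzymes and proteins of membrane traffic and the cytoskeleton.

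None of the 9 tested genes passed between treated and PBS cells after adjustment over all genes (limma, Benjamini-Hochberg), where 0.101% of all tested genes did for glucose, 0.0754% for glucose+lipid and 0.268% over both treatments. The lowest adjusted p was 0.317 in the glucose comparison, 0.533 in the glucose+lipid comparison and 0.401 over both treatments. At an unadjusted p under 0.05 there were 1 of 9 for glucose, 0 of 9 for glucose+lipid and 2 of 9 over both treatments, against 14.9%, 11.8% and 11.4% of all tested genes. They were Selp, an adhesion molecule that lay lower after glucose, and Aldh1a1 and Gpr183, an aldehyde dehydrogenase and an oxysterol receptor that lay higher over both treatments; over both treatments neither of this pair was under 0.05 without glucose+lipid replicate 1, the library described next. Nupr1 and Fhl1 lay further apart between the PBS pairs than between either treated group and its controls. In bulk RNA, fewer cells that express a gene and less RNA per cell cannot be told apart.

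The LSK identity of the libraries was checked first, because 1 library stands apart. The summed level of 9 LSK markers was 1428 to 1849 FPKM over the 8 libraries. In glucose+lipid replicate 1 the 10 neutrophil markers summed to 65917 FPKM, against 245.5 to 608.0 FPKM in the other 7 libraries, and all 10 were highest there. The 8 monocyte markers summed to 4846 FPKM in it, against 413.2 to 543.7 FPKM elsewhere. The 8 B and plasma cell markers summed to 192.3 FPKM in it, against 40.7 to 72.6 FPKM elsewhere. Erythroid markers summed to 1018 and 1102 FPKM in glucose+lipid replicates 1 and 2, against 231.1 to 468.3 FPKM in the other 6 libraries. Of the endothelial markers, Egfl7 ran from 88.0 to 137.7 FPKM and Emcn from 19.8 to 36.6 FPKM over the libraries. Cdh5, which defines endothelium, was at most 0.082 FPKM in any library. What gave the endothelial marker values was not tested. The glucose+lipid value of each tested gene is given below with and without replicate 1.

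The genes differ widely in level. On the FPKM scale, which is per transcript length, Nupr1 stood highest with a mean of 22.4 over 8 libraries, followed by Sult1a1 at 17.2, Aldh1a1 at 10.3, Fhl1 at 8.71 and Selp at 6.68. Clu at 2.84, Ehd3 at 2.66, Gpr183 at 1.42, Jam2 at 1.05 and Neo1 at 0.41 made up the low end. Every pair of neighbours in this order has overlapping library ranges except Selp and Clu, so only that step exceeds the spread between libraries. The most abundant of them was a transcript of middling level: Nupr1's mean lay at the 59.0th percentile of tested genes, where the median was 15.8 FPKM. Precision follows from depth, which the files do not state. The steps between low values gave an estimate of 6570000 to 9500000 fragments per library. On that estimate Nupr1 rested on at most 245 to 594 fragments per library, Jam2 on at most 10 to 62 and Gpr183 on at most 5 to 107.

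**Figure D1:**
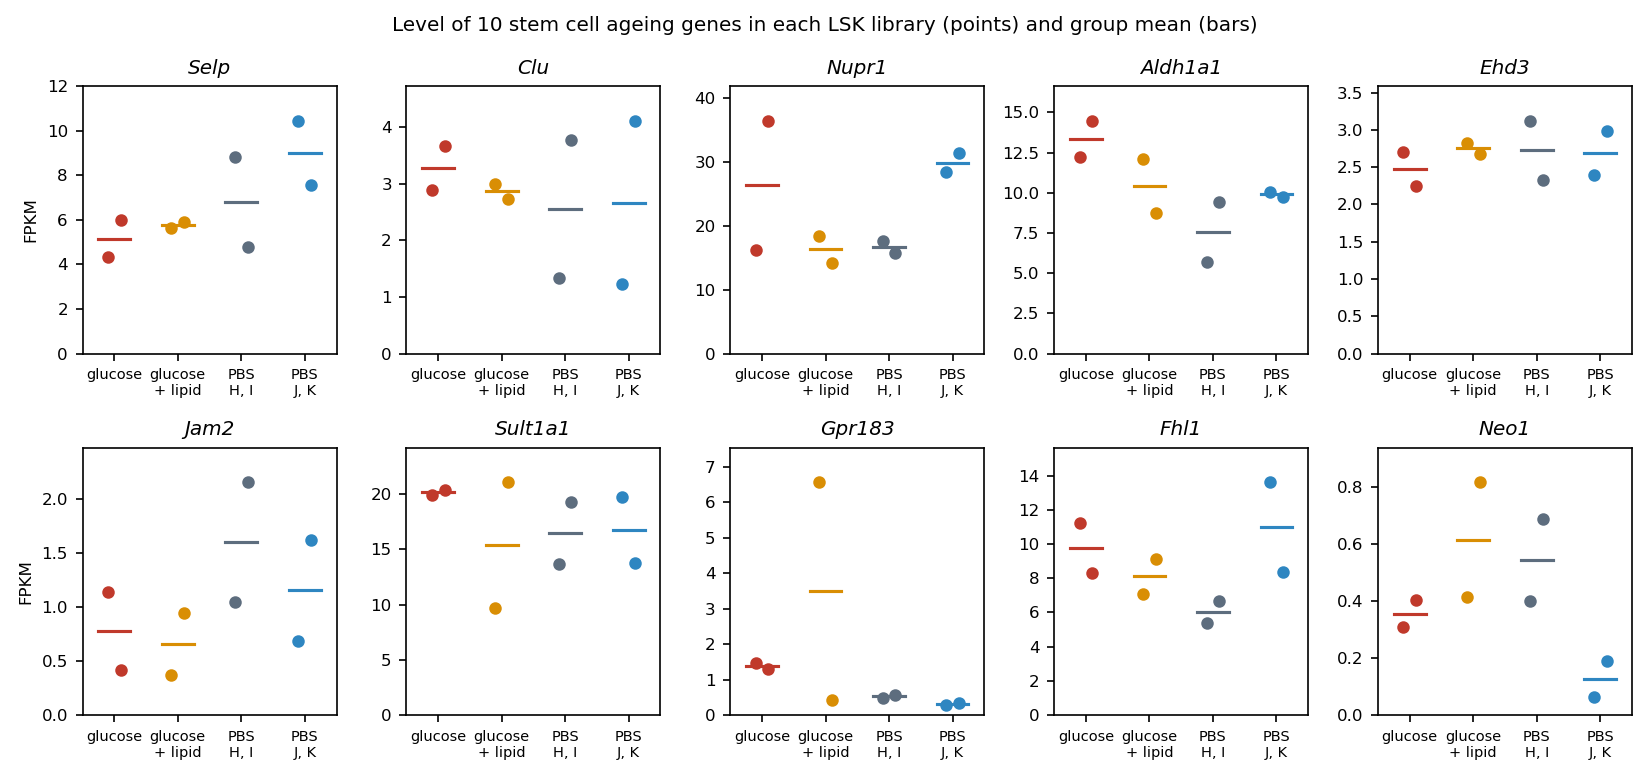
FPKM of the 10 genes in each library (points) and the mean of each pair (bars), with glucose and glucose+lipid left of the PBS pairs; each axis starts at 0 and has its own scale. Gpr183 reached 6.56 FPKM in 1 glucose+lipid library, and Nupr1 stood at 28.5 and 31.4 FPKM in PBS J/K but at 17.6 and 15.8 FPKM in PBS H/I.

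Promoter sequences are shown here as a description, and no link between them and the measured levels was tested. RefSeq promoter windows of GRCm38.p6 (250 bases before to 50 after a transcript start, 300 in all) were matched for 8 of the 10 genes. Those of Selp, Aldh1a1 (a pair of starts) and Gpr183, the genes with an unadjusted p under 0.05 in a treatment comparison, and of Nupr1 follow 5′ to 3′. Capitals mark matches, on either strand, to 5 motifs: AP-1 (TGANTCA), the cAMP response element CRE (TGACGTCA), the composite ATF-CEBP element bound by ATF4 (TGATGNAA), the E-box (CACGTG) and the site of GATA factors (AGATAA).
Selp, chr1:164115014-164115313, plus strand: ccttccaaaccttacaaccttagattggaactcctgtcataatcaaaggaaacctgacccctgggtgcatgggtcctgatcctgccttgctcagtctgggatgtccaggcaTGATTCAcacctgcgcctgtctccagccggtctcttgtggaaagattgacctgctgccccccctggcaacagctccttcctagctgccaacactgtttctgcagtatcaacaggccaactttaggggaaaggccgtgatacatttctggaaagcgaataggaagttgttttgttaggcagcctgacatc
Aldh1a1, upstream start, chr19:20492333-20492632, plus strand: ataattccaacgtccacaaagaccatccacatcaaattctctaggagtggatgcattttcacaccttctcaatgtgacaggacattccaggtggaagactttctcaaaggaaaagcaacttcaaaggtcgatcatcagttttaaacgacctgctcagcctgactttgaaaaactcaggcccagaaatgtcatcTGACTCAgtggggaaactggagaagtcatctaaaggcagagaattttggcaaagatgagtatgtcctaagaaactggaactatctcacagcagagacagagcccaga
Aldh1a1, downstream start, chr19:20601718-20602017, plus strand: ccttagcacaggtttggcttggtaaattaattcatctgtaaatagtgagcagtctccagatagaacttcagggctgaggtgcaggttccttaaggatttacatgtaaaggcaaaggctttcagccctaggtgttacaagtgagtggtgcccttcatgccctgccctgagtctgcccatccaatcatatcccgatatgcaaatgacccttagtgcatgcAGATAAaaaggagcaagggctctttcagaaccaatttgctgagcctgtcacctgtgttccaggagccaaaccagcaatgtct
Gpr183, chr14:121965144-121965443, minus strand: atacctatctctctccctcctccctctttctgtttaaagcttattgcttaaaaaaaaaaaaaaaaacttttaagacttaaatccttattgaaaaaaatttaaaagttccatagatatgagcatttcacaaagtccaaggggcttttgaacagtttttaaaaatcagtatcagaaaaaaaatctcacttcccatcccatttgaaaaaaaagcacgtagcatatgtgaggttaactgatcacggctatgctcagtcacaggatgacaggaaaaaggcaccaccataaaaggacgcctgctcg
Nupr1, chr7:126625421-126625720, minus strand: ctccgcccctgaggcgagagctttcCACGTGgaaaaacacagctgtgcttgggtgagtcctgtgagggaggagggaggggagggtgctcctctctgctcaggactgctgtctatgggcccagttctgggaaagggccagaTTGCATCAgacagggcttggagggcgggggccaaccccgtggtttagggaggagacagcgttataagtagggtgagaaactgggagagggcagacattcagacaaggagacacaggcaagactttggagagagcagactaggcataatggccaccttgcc
Counted from the first transcribed base as 0, Selp has a match to the AP-1 pattern at -139 to -133, read as TGATTCA. The upstream Aldh1a1 window has one at -57 to -51, read as TGACTCA. The pattern used here accepts any middle base, so these matches differ in that letter. AP-1 matches occur in 7.8% of all 32851 windows. The downstream Aldh1a1 window has a GATA match at -32 to -27, a motif found in 11.2% of windows. Nupr1 has an ATF-CEBP match, read on the reverse strand as TTGCATCA, at -110 to -103 and an E-box at -225 to -220, found in 4.0% and 7.2% of windows. CRE matches occur in 1.8% of windows and in none of these. The Gpr183 window holds none of the 5 motifs and is poor in G and C (35.3%, against a median of 52.7%). No matches overlap each other, and a match is a description of the letters only.

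The surface proteins were Selp, Jam2, Gpr183 and Neo1. Selp encodes P-selectin, an adhesion molecule of platelets and endothelium that binds PSGL-1 on white blood cells, and lies on chromosome 1 at 164115264 to 164150026 (GRCm38, plus strand, 16 exons in its longest transcript). It measured 4.35 and 5.97 FPKM in glucose libraries, against 10.4 and 7.56 FPKM in PBS J/K. The ranges of the 2 groups do not overlap, and both glucose libraries lie below both controls. The log2 fold change was -0.70 ± 0.29 (SE, n = 2 each; limma adjusted p = 0.317), with a 95% interval of -1.36 to -0.033. In glucose+lipid libraries Selp measured 5.61 and 5.89 FPKM, against 8.82 and 4.79 FPKM in PBS H/I, where the treated pair falls between the controls. That log2 fold change was -0.16 ± 0.29 (SE, n = 2 each; limma adjusted p = 0.876), and -0.13 without replicate 1. Over both treatments it was -0.43, with an interval of -0.91 to 0.054 (limma adjusted p = 0.473). The difference between the 2 treatments' effects, 0.54 on the log2 scale, did not pass either (limma adjusted p = 0.616). Selplg, which encodes PSGL-1, was abundant at 109.7 to 155.7 FPKM over the 8 libraries. Sele, the endothelial selectin, was at most 0.25 FPKM. Selp is made by platelets and endothelium, so markers of both were summed. The 9 megakaryocyte and platelet markers summed to 414.8 and 350.8 FPKM in glucose libraries, against 358.1 and 352.3 FPKM in PBS J/K. They summed to 373.2 and 408.1 FPKM in glucose+lipid libraries, against 257.7 and 268.4 FPKM in PBS H/I. None of the 8 tested passed in either comparison (limma). At an unadjusted p under 0.05 there were 0 of 8 after glucose and 4 of 8 after glucose+lipid, all 4 of them higher. Over all tested genes these shares were 14.9% and 11.8%. With no treatment between them, all 8 lay lower in PBS H/I than in PBS J/K (median log2 difference -0.49). Of these, 2 of 8 had an unadjusted p under 0.05, against 17.2% of all tested genes. The 9 endothelial markers summed to 117 and 131 FPKM in glucose libraries, against 139 and 171 FPKM in PBS J/K. They summed to 147 and 180 FPKM in glucose+lipid libraries, against 153 and 167 FPKM in PBS H/I. Egfl7 alone measured 88.0 to 137.7 FPKM and Emcn 19.8 to 36.6 FPKM, while 4 of the 9 were below 1 FPKM everywhere. Cdh5 was at or near 0. The part of these markers in the Selp values was not tested.

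Jam2, a junctional adhesion molecule that pairs with Jam3, lies on chromosome 16 at 84774123 to 84825928. It measured 1.13 and 0.41 FPKM after glucose, against 0.69 and 1.62 FPKM in PBS J/K, and the groups overlap. After glucose+lipid it measured 0.37 and 0.95 FPKM, against 1.05 and 2.15 FPKM in PBS H/I, with both treated libraries below both controls. The log2 fold changes were -0.28 and -0.64 (limma adjusted p = 0.777 and 0.558). The lower glucose+lipid library is replicate 1, without which that value was -0.38 (limma adjusted p = 0.785). Over both treatments it was -0.46, with an interval of -1.05 to 0.14 (limma adjusted p = 0.530). Its partner Jam3 ran from 6.82 to 9.16 FPKM, and the related F11r, which encodes JAM-A, ran from 21.1 to 32.3 FPKM.

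Gpr183 (also called EBI2) is a receptor for oxysterols that guides B cells and other white blood cells, and lies on chromosome 14 at 121952551 to 121965195. It measured 1.47 and 1.29 FPKM after glucose, against 0.28 and 0.33 FPKM in PBS J/K. It measured 6.56 and 0.43 FPKM after glucose+lipid, against 0.47 and 0.58 FPKM in PBS H/I. Both glucose libraries thus lie above all 4 PBS libraries, while of the glucose+lipid libraries replicate 1 lies above all 4 and replicate 2 lies within their range. The ratio of mean FPKM to the mean of the 4 PBS libraries was 3.35 for glucose and 8.48 for glucose+lipid. The log2 fold change of FPKM + 1, which understates a low gene, was 0.87 ± 0.65 for glucose and 1.11 ± 0.65 for glucose+lipid (SE, n = 2 each; limma adjusted p = 0.569 and 0.554). Over both treatments it was 0.99, with an interval of 0.00044 to 1.98 (limma adjusted p = 0.438). The groups share 1 estimate of the spread. The SE of 0.65 for glucose therefore also holds the gap between the glucose+lipid libraries, which are not in that comparison. The glucose libraries lie close together, as do PBS J/K. Without glucose+lipid replicate 1 the glucose value stayed at 0.87.

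The gene lies wholly inside Ubac2, a protein-coding gene on the other strand that measured 47.4 to 58.4 FPKM. Whether fragments were assigned by strand is not given in the sources used here, so reads of the pair may not be told apart. Gene spans were compared here, not exons. By span, Selp, Aldh1a1, Sult1a1 and Neo1 also overlap genes on the other strand, in part of their length.

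A single library sets the glucose+lipid value. Without glucose+lipid replicate 1 the log2 fold change of Gpr183 was -0.091 (limma adjusted p = 0.933). Without replicate 2 it was 2.31 (limma adjusted p = 0.0071), in a fit that called 254 genes higher and 17 lower and in which the lone library is assumed to vary like the other groups. Over both treatments, leaving out replicate 1 gave 0.49 (limma adjusted p = 0.444). Of all genes considered, Il1b, an inflammatory cytokine, had the pattern most like Gpr183 (Pearson r = 0.971 over 8 libraries). Il1b measured 161.2 FPKM in glucose+lipid replicate 1 and at most 2.31 FPKM in any other library, and r over the other 7 libraries was 0.830. Replicate 1 is also the library with the highest neutrophil, monocyte and B cell markers, whose part in the Gpr183 value was not tested. In glucose libraries the neutrophil marker sum was 245.5 and 420.5 FPKM, within or below the 321.8 to 608.0 FPKM of PBS. The monocyte sum was 472.8 and 543.7 FPKM, above the 413.2 to 462.6 FPKM of PBS. The B and plasma cell sum was 72.6 and 65.7 FPKM in glucose, above the 40.7 to 58.1 FPKM of PBS. Taken singly, 1 of 8 monocyte and 0 of 8 B and plasma cell markers lay above all 4 PBS libraries in both glucose libraries. Of the 8 B and plasma cell markers, 5 were below 1 FPKM in all libraries other than glucose+lipid replicate 1. Cd79a, which defines B cells, was at most 0.38 FPKM in every library but that one. Ch25h, which makes the oxysterol precursor of the Gpr183 ligand, was at most 0.13 FPKM, while Hsd3b7, which breaks the ligand down, stood at 80.6 to 123.8 FPKM. Gpr18, a related receptor of lymphoid cells, measured 2.09 and 4.45 FPKM after glucose, 6.31 and 3.19 FPKM after glucose+lipid and 0.65 to 2.17 FPKM in PBS. Its log2 fold change over both treatments was 1.21 ± 0.31 (SE, n = 4 each; limma adjusted p = 0.254).

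**Figure D2:**
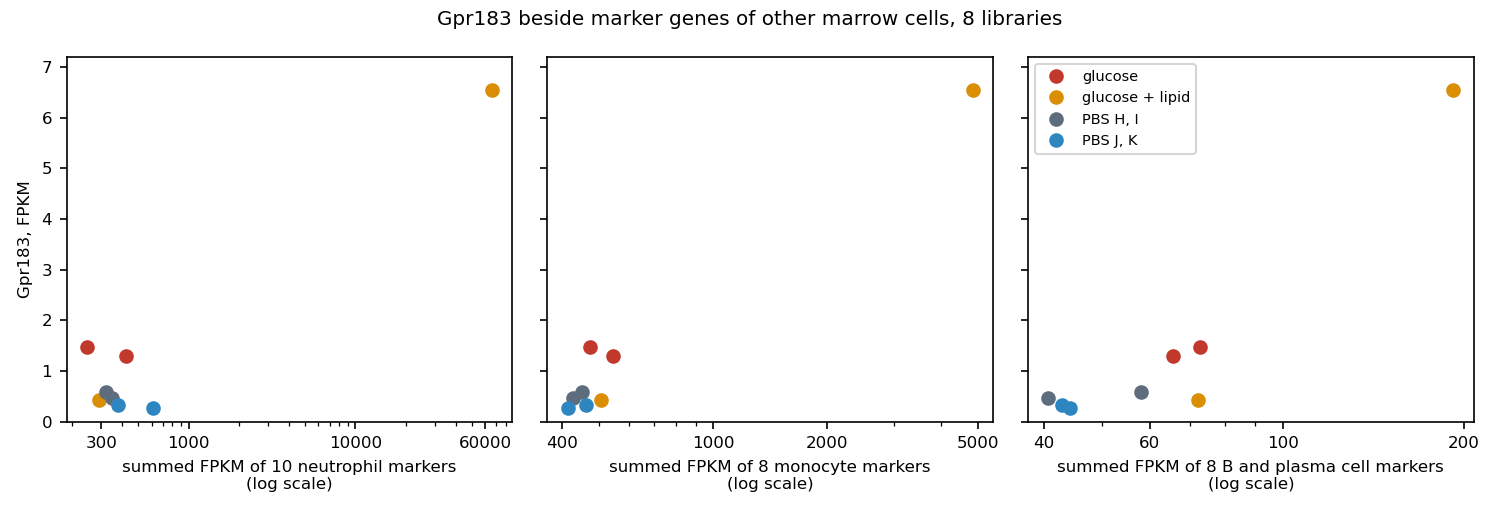
Gpr183 FPKM against the summed FPKM of 10 neutrophil, 8 monocyte and 8 B and plasma cell markers (log scale) in the 8 libraries, coloured by group. The glucose+lipid library at 6.56 FPKM is the one with the highest sum in each panel, and the glucose libraries at 1.47 and 1.29 FPKM lie above PBS. Their monocyte and B and plasma cell sums lie above the PBS range and their neutrophil sums within or below it. Taken singly, 1 of 8 monocyte and 0 of 8 B and plasma cell markers lay above all PBS libraries in both glucose libraries.

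Neo1, or neogenin, is a receptor for netrins and repulsive guidance molecules and marks a subset of stem cells. It lies on chromosome 9 at 58874687 to 59036441. It measured 0.31 and 0.40 FPKM after glucose, 0.41 and 0.82 FPKM after glucose+lipid, 0.40 and 0.69 FPKM in PBS H/I, and 0.064 and 0.19 FPKM in PBS J/K. PBS J/K were the lowest of the 8 libraries. With no filter on low values its log2 fold change was 0.27 for glucose and 0.060 for glucose+lipid (limma adjusted p = 0.627 and 0.956). On the depth estimate these values rest on at most 3 to 55 fragments per library. The genes of its ligand Rgma and of Hfe2 (hemojuvelin) were at 0 in every library. The related Rgmb ran from 0.67 to 1.30 FPKM, and the netrin genes Ntn1 and Ntn4 were at most 0.084 and 0.77 FPKM.

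Clu encodes clusterin, a secreted chaperone, and lies on chromosome 14 at 65968483 to 65981547. It measured 2.88 and 3.66 FPKM after glucose and 2.99 and 2.73 FPKM after glucose+lipid. In PBS it measured 1.33 and 3.77 FPKM (H/I) and 1.22 and 4.11 FPKM (J/K). The 4 treated libraries therefore sat inside the range of the controls, which split into a low and a high library in each pair. The log2 fold change was 0.34 for glucose and 0.21 for glucose+lipid (limma adjusted p = 0.770 and 0.898), and the second was 0.16 without glucose+lipid replicate 1. The intervals, -0.71 to 1.38 and -0.84 to 1.26, are wide. Lrp8, a receptor that can bind clusterin, ran from 2.99 to 7.31 FPKM.

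Nupr1 is a small nuclear protein induced by cell stress, in many cells through ATF4, the transcription factor of the integrated stress response. It lies on chromosome 7 at 126623249 to 126630861 on the minus strand, 42.0 kb from Sult1a1. It measured 16.3 and 36.5 FPKM after glucose, against 28.5 and 31.4 FPKM in PBS J/K. It measured 18.5 and 14.3 FPKM after glucose+lipid, against 17.6 and 15.8 FPKM in PBS H/I. The glucose replicates span the controls on both sides, and glucose+lipid overlaps its controls. The log2 fold changes were -0.28 ± 0.32 and -0.038 ± 0.32 (SE, n = 2 each; limma adjusted p = 0.723 and 0.978). With glucose+lipid replicate 1 left out the second was -0.21 (limma adjusted p = 0.867). Over both treatments the value was -0.16, with an interval of -0.66 to 0.34 (limma adjusted p = 0.809), and -0.25 without that library.

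Atf4 itself rose. It measured 146.0 and 164.6 FPKM after glucose and 159.2 and 162.7 FPKM after glucose+lipid, against 98.6 and 95.4 FPKM in PBS H/I and 102.1 and 115.2 FPKM in PBS J/K. Every treated library lies above every PBS library. The log2 fold change was 0.51 for glucose and 0.72 for glucose+lipid (limma adjusted p = 0.162 and 0.0786). Over both treatments the log2 fold change of Atf4 was 0.62 ± 0.084 (SE, n = 4 each; limma adjusted p = 0.0246). It was the single gene to pass among 15 tested partners of the ageing genes, of 25 listed; 0.268% of all tested genes passed in that comparison, and none of them was lower. With 1 library left out the log2 value stayed between 0.59 and 0.67, but the adjusted p ran from 0.0264 to 0.123 and passed in 2 of 8 such fits. Without glucose+lipid replicate 1 the limma adjusted p was 0.0637. Of 7 other alternatives, 3 did not pass. These were a replicate block, no filter on low values and rescaling without small RNA genes (limma adjusted p = 0.0578, 0.0641 and 0.0525). Ddit3, which encodes the stress factor CHOP downstream of ATF4, measured 40.8 and 46.0 FPKM after glucose and 42.7 and 44.3 FPKM after glucose+lipid, against at most 30.2 FPKM in any PBS library. Its log2 fold change of 0.85 did not pass (limma adjusted p = 0.136), although no treated library overlapped a PBS library. Trib3, another ATF4 target, stood at 0.28 (limma adjusted p = 0.647). Nupr1, whose window shown above holds an ATF-CEBP match, stood at -0.16 in the same 8 libraries, with an interval of -0.66 to 0.34. Whether Nupr1 follows Atf4 in these cells was not tested.

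**Figure D3:**
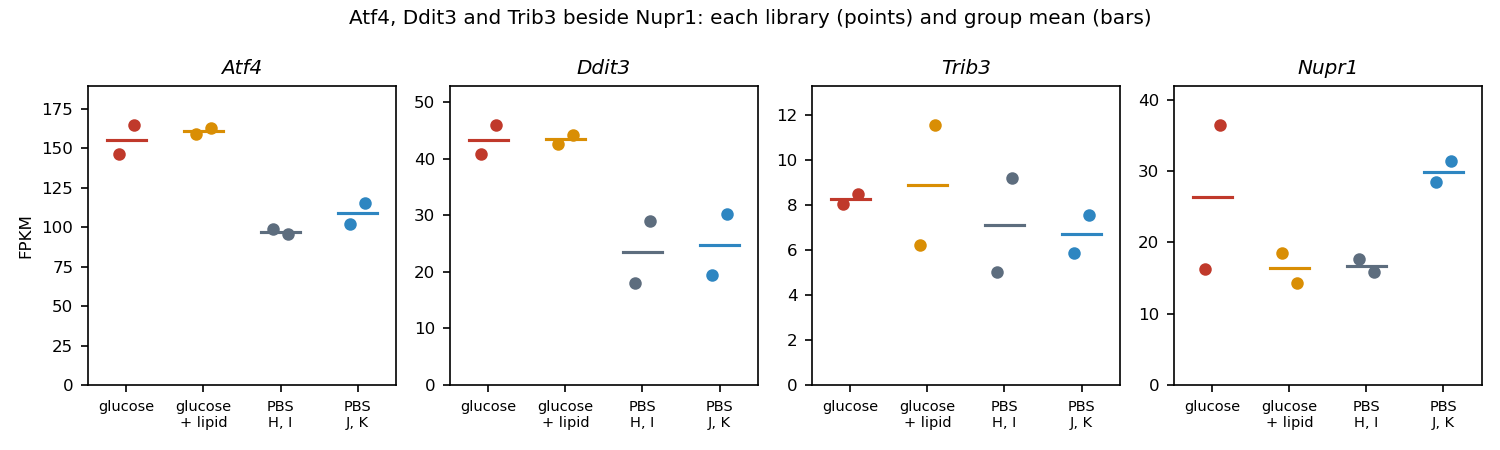
FPKM of Atf4, Ddit3, Trib3 and Nupr1 in each library (points) and group means (bars), each axis starting at 0. Atf4 and Ddit3 are higher in all 4 treated libraries than in all 4 PBS libraries, whereas Nupr1 spreads from 14.3 to 36.5 FPKM among treated libraries.

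Fhl1 is a LIM-domain protein of the cytoskeleton and nucleus best known in muscle, and lies on chromosome X at 56731787 to 56793346. It measured 11.2 and 8.30 FPKM after glucose, against 13.6 and 8.34 FPKM in PBS J/K, with the ranges overlapping. It measured 7.09 and 9.11 FPKM after glucose+lipid, against 5.36 and 6.65 FPKM in PBS H/I, where both treated libraries lie above both controls. The log2 fold changes were -0.13 and 0.37 (limma adjusted p = 0.850 and 0.626), and the second was 0.54 without glucose+lipid replicate 1 (limma adjusted p = 0.566). The direction rests on which controls are used: against all 4 PBS libraries the glucose value was 0.24, and with the pairs exchanged it was 0.61 for glucose and -0.37 for glucose+lipid. The same holds for Nupr1 after glucose, at 0.12 against all 4 PBS libraries and 0.52 against PBS H/I. Among relatives of Fhl1, Fhl3 measured 1.56 and 1.75 FPKM after glucose, against 3.16 and 3.13 FPKM in PBS J/K (log2 fold change -0.64, limma adjusted p = 0.296). In PBS H/I it measured 1.44 and 2.14 FPKM, a range that holds both glucose libraries, and the glucose value was -0.35 against all 4 PBS libraries and -0.060 against PBS H/I.

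Aldh1a1 oxidises retinal to retinoic acid and clears reactive aldehydes, and lies on chromosome 19 at 20492715 to 20643465. It measured 12.2 and 14.5 FPKM after glucose, against 10.1 and 9.74 FPKM in PBS J/K. It measured 12.1 and 8.75 FPKM after glucose+lipid, against 5.67 and 9.45 FPKM in PBS H/I. Of the 4 treated libraries, 3 lie above all 4 PBS libraries, and glucose+lipid replicate 2 lies among them. The log2 fold changes were 0.39 ± 0.25 and 0.44 ± 0.25 (SE, n = 2 each; limma adjusted p = 0.498 and 0.533). Over both treatments the value was 0.42, with an interval of 0.037 to 0.79 (limma adjusted p = 0.401). The difference of effects was 0.044, with an interval of -0.76 to 0.85. Leaving out glucose+lipid replicate 1 gave 0.22 for glucose+lipid (limma adjusted p = 0.799), 0.33 over both treatments (limma adjusted p = 0.462) and -0.17 for the difference of effects. The related Aldh2 was far more abundant, at 224.4 to 307.6 FPKM, while Aldh1a7, a near copy of Aldh1a1 in rodents with which reads could be shared, was at most 2.17 FPKM.

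Sult1a1, a phenol sulfotransferase, lies on chromosome 7 at 126672865 to 126676432 on the minus strand. It measured 20.0 and 20.4 FPKM after glucose, against 19.7 and 13.7 FPKM in PBS J/K. It measured 9.71 and 21.1 FPKM after glucose+lipid, against 13.7 and 19.3 FPKM in PBS H/I, so the glucose+lipid replicates are the lowest and the highest of the 8 libraries. The log2 fold changes were 0.28 and -0.17 (limma adjusted p = 0.741 and 0.895). The lowest library is glucose+lipid replicate 1, the one with the high neutrophil and monocyte marker sums, whose part in the value was not tested. Without it the glucose+lipid value turned to 0.35 (limma adjusted p = 0.655). Although Sult1a1 and Nupr1 are neighbours in the genome, Pearson r of their log2 values over the 8 libraries was 0.015.

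Ehd3, which shapes membranes in endosomal recycling, lies on chromosome 17 at 73804134 to 73832094. It measured 2.71 and 2.25 FPKM after glucose, against 2.40 and 2.99 FPKM in PBS J/K. It measured 2.82 and 2.68 FPKM after glucose+lipid, against 3.12 and 2.33 FPKM in PBS H/I. It was the steadiest of the 10 genes, with a coefficient of variation of 11.8% over all 8 libraries. Its interval was also the narrowest: over both treatments the log2 fold change was -0.033, with bounds of -0.38 and 0.31 (limma adjusted p = 0.952). After glucose+lipid alone it was 0.018, and -0.0091 without replicate 1. The related Ehd4 and Ehd1 were higher in level, at 21.3 to 31.8 FPKM and 10.7 to 28.0 FPKM.

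**Figure D4:**
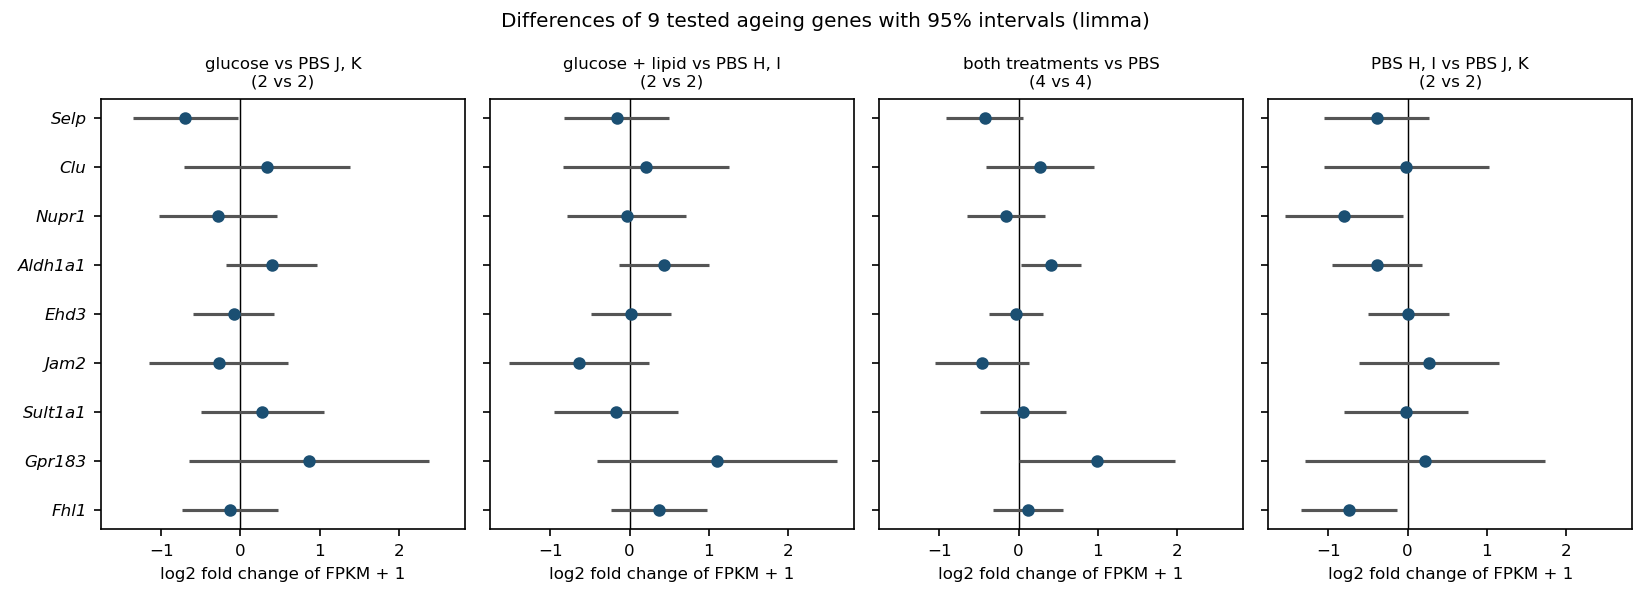
Log2 fold change of FPKM + 1 (points) with 95% limma intervals (lines) for the 9 tested genes in 4 comparisons. Intervals for Gpr183 are the widest, those for Ehd3 the narrowest, and Nupr1 and Fhl1 lie at -0.80 and -0.74 between the PBS pairs.

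The counts over the 9 genes were read against those over all 11931 tested genes. For the difference of effects, 0 of 9 passed and 0 of 9 had an unadjusted p under 0.05, against 0.0168% and 12.2% of all genes. With 9 genes, 1 gene is 11.1% of the list, and these shares lie near the background. The groups did not overlap for 4 of 9 genes after glucose (Selp lower; Aldh1a1, Sult1a1 and Gpr183 higher), against 47.1% of all genes. They did not overlap for 2 of 9 after glucose+lipid (Jam2 lower, Fhl1 higher), against 44.0% of all genes. All 4 treated libraries stood apart from all 4 PBS libraries for 0 of 9, against 6.39% of all genes. The median log2 fold change of the 9 was -0.084 for glucose, 0.018 for glucose+lipid and 0.056 over both, against -0.00014, 0.011 and -0.0070 over all tested genes. Without glucose+lipid replicate 1 again 0 of 9 passed in each of the 3 comparisons. At an unadjusted p under 0.05 there were then 2 of 9 for glucose (Selp and Gpr183), 0 of 9 for glucose+lipid and 0 of 9 over both treatments, against 16.2%, 11.1% and 13.1% of all tested genes in that fit.

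Between the PBS pairs, where no treatment differs, the values of some of these genes lay as far apart. Nupr1 measured 17.6 and 15.8 FPKM in PBS H/I, against 28.5 and 31.4 FPKM in PBS J/K, a log2 difference of -0.80 ± 0.32 (SE, n = 2 each; limma adjusted p = 0.262). Fhl1 measured 5.36 and 6.65 FPKM in PBS H/I, against 13.6 and 8.34 FPKM in PBS J/K, a log2 difference of -0.74 ± 0.26 (SE, n = 2 each; limma adjusted p = 0.216). These were 2 of 9 at an unadjusted p under 0.05, against 17.2% of all genes. None passed after adjustment, where 0.0503% of all genes did. The PBS pairs did not overlap for 4 of 9 (Nupr1, Aldh1a1 and Fhl1 lower and Gpr183 higher in H/I), against 49.7% of all genes. What separates the PBS pairs is not given in the labels. The names of PBS H/I and of glucose+lipid libraries share a tag, BM, that glucose and PBS J/K lack. Among treated libraries, whatever the tag marks and the lipid cannot be told apart.

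The 10 genes did not move as a block across libraries. Over their 45 pairs, Pearson r of log2 values over 8 libraries had a median of -0.10, and 21 pairs were above 0. The extremes were Selp with Clu at -0.70 and Clu with Aldh1a1 at 0.55. Their summed level was 72.5 and 93.6 FPKM after glucose, 66.2 and 66.7 FPKM after glucose+lipid, and 57.5 to 86.9 FPKM in PBS. The genes whose patterns came closest to each over the 8 libraries, of 9164 considered, were each a different gene: Morf4l1 for Selp (Pearson r = 0.963), Treml2 for Clu (0.962), Usp34 for Nupr1 (0.964), Rgs10 for Aldh1a1 (0.929) and Ogfod2 for Ehd3 (0.980). Arl5b was closest to Jam2 (0.944), Sfr1 to Sult1a1 (0.959) and Sf3b4 to Fhl1 (0.972). These are the best of many candidates over 8 points and are given as a description.

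A wider list of 22 other genes reported higher in old stem cells was read beside them. Of the 18 tested, 0 passed in the glucose, glucose+lipid and pooled comparisons. At an unadjusted p under 0.05 there were 0, 1 and 0 of 18, against 14.9%, 11.8% and 11.4% of all tested genes. Their median log2 fold change was 0.15, 0.16 and 0.22, and 13, 13 and 12 of 18 lay above 0. Of all 11931 tested genes, 5957, 6170 and 5808 lay above 0. Between PBS H/I and PBS J/K, with no treatment between them, the median of the 18 was 0.16, with 11 of 18 above 0. The gene under 0.05 was Mt2, a metallothionein that binds metals and answers to stress. It measured 24.9 and 4.28 FPKM after glucose+lipid, against 2.04 and 1.24 FPKM in PBS H/I (log2 fold change 2.16, limma adjusted p = 0.292), and 2.09 and 0.78 FPKM after glucose, against 1.30 and 1.29 FPKM in PBS J/K. Without glucose+lipid replicate 1 its value was 1.02 (limma adjusted p = 0.414). Vwf, a platelet adhesion factor that marks platelet-biased stem cells, measured 1.99 and 2.09 FPKM after glucose and 2.60 and 2.29 FPKM after glucose+lipid, against 0.84 to 1.96 FPKM in PBS. Its log2 fold change over both treatments was 0.39 (limma adjusted p = 0.449), beside the platelet marker sums given with Selp.

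**Figure D5:**
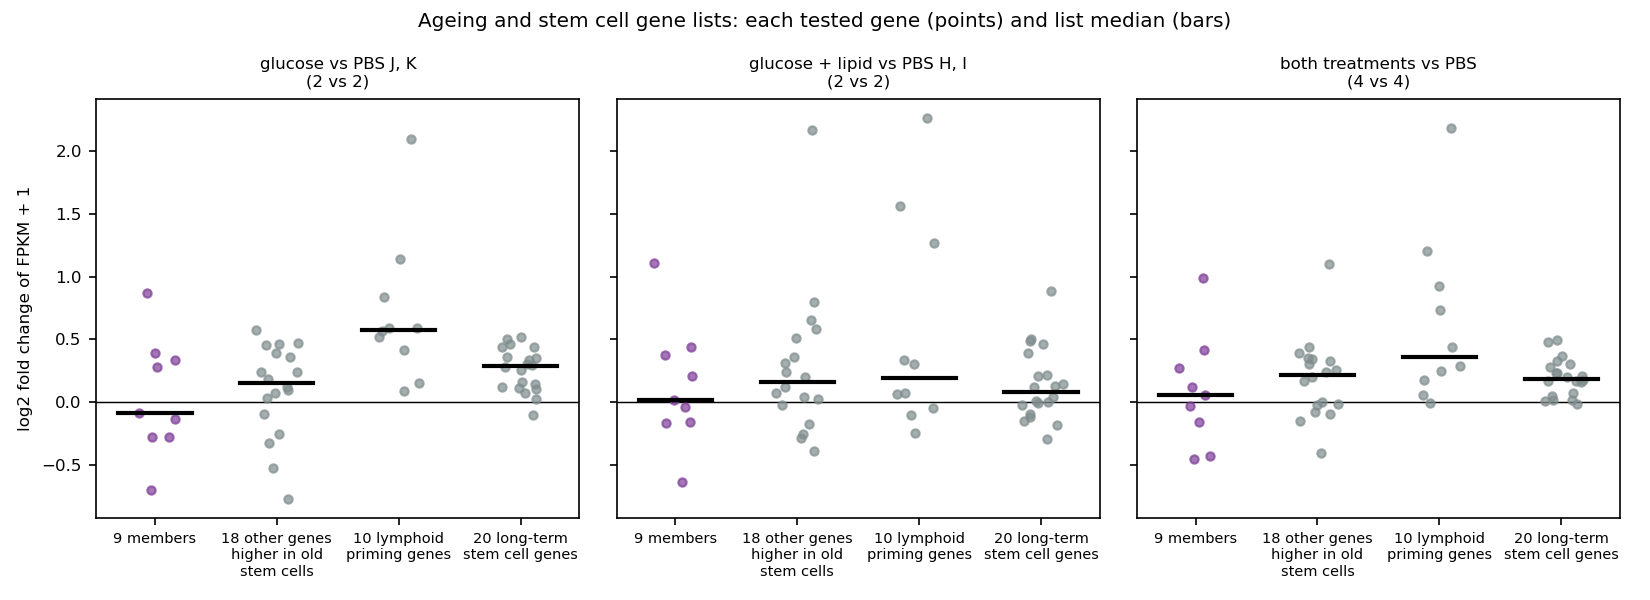
Log2 fold change of FPKM + 1 of every tested gene (points) and the median (bars) for the 9 ageing genes, 18 other ageing genes, 10 lymphoid priming genes and 20 long-term stem cell genes in 3 comparisons. The 9 genes straddle 0 in each, and their medians are -0.084, 0.018 and 0.056.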

How the data were processed

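The submitters' processing notes name TopHat2 2.0.13 with Bowtie2 2.2.3 and SAMtools 1.0, then Cuffnorm 2.2.1, and the mm10 build. Per the labels, each extract held RNA of about 10000 cells, cDNA was made by SMART-Seq HT and libraries by Nextera XT. The authors deposited FPKM, which no header names: the values and the use of Cuffnorm point to that unit. Neither the annotation nor the scaling between libraries is given in the sources used here. Depth was estimated from the steps between low values, taking fragments of 250 bases. Of those values, 78.1% to 84.3% lay within 0.2 of a whole fragment.

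A gene was tested if 2 or more libraries held 1 FPKM or more. Values of log2(FPKM + 1) were modelled with limma 3.58.1 (R 4.3.3, mean-variance trend), all 8 libraries in 1 fit of 4 groups with 4 residual degrees of freedom. The pooled comparison carried the control set as a term. P-values are 2-sided, with Benjamini-Hochberg adjustment over all tested genes and a threshold of 0.05. The procedure was tested on simulated data. Positions are from GENCODE vM21, and tables were made in Python 3.11.15. The genes, lists and comparisons were chosen with earlier results of these data known. All 10 genes were named, plus up to 4 passing genes per list (or, with none, up to 2 with the smallest p), partners of the 10, and the gene closest in pattern to each. Alternatives were other pseudocounts, filters, scalings and controls, a replicate block, and leaving out each library.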

Additional observations from a re-analysis of the deposited data

Results flagged for a closer look

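Aldh1a1 in the 4 PBS libraries was picked out because its lowest library lies far from the others. PBS replicate 1 measured 5.67 FPKM, and the other PBS libraries measured 9.45, 10.1 and 9.74 FPKM. The gap to the nearest library was 0.859 of the whole range. Without that library the log2 fold change of Aldh1a1 was 0.11 for glucose+lipid and 0.28 over both treatments (limma adjusted p = 0.948 and 0.635). Each of the 10 genes was examined this way, and chance flags about 1 in 20 groups.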

How the results depend on the processing

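No ageing gene passed under the alternatives run, except that Gpr183 did for glucose+lipid without glucose+lipid replicate 2, so that the number passing there ranged from 0 to 1 when a library was left out. Of 673 log2 values recomputed for the 9 genes, 616 kept their direction and side of the threshold, and 56 changed sign, none of them a call. With a replicate block 0 of the 9 passed in any comparison, and over all genes 14 were higher and 2 lower for glucose and 9 higher and 2 lower for glucose+lipid. The main fit did not pair glucose+lipid and PBS H/I by replicate number. Over genes, the deviations of their replicates had r = 0.066, but 2 pairs cannot show whether the libraries are paired. Glucose shares no numbers with its controls. With exchanged controls, log2 values turned to 0.52 (Nupr1) and 0.61 (Fhl1) for glucose and to -0.37 (Fhl1) for glucose+lipid. Against all 4 PBS libraries they turned to 0.12 (Nupr1) and 0.24 (Fhl1) for glucose. Quantile normalisation turned Ehd3 to -0.043 for glucose+lipid and to -0.11 between the PBS pairs. FPKM rescaled without small RNA genes turned Ehd3 to -0.10 for glucose+lipid, Aldh1a1, Ehd3 and Gpr183 to -0.15, -0.062 and -0.049 for the difference of effects, and Clu and Sult1a1 to 0.071 and 0.085 between the PBS pairs. A pseudocount of 0.1 turned Gpr183 to -0.29 for the difference of effects. Where a library left out changed the sign of a log2 value, the lowest and highest such values were as follows. For glucose, the ranges were Nupr1 -0.84 to 0.28, Ehd3 -0.20 to 0.030, Jam2 -0.59 to 0.043, Fhl1 -0.45 to 0.19 and Clu -0.26 to 0.94. For glucose+lipid, the ranges were Ehd3 -0.14 to 0.17, Sult1a1 -0.69 to 0.35, Gpr183 -0.091 to 2.31, Nupr1 -0.21 to 0.14, Selp -0.54 to 0.22 and Clu -0.31 to 0.73. Over both treatments, the ranges were Nupr1 -0.36 to 0.089, Ehd3 -0.10 to 0.023 and Sult1a1 -0.11 to 0.31. For the difference of effects, the ranges were Nupr1 -0.32 to 0.80, Aldh1a1 -0.28 to 0.37, Clu -0.73 to 0.47, Sult1a1 -0.96 to 0.078, Gpr183 -0.96 to 1.44 and Ehd3 -0.052 to 0.26. Between the PBS pairs, the ranges were Clu -0.62 to 0.58, Ehd3 -0.14 to 0.16, Sult1a1 -0.26 to 0.23 and Jam2 -0.045 to 0.59. The cause of these changes was not tested. Over all genes, calls for glucose (11 higher, 1 lower) became 26 higher and 1 lower after the rescaling, and calls for glucose+lipid (7 higher, 2 lower) became 27 and 1 with exchanged controls. With 2 libraries a group, the 95% limits of a log2 fold change lay 0.51 (Ehd3) to 1.52 (Gpr183) from its estimate.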

Other observations

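Genes of lymphoid priming, which are reported to be lower in old stem cells, had medians above 0 in treated cells. Of 12 listed genes 10 were tested, and 0 passed in any treatment comparison (limma), with 3, 3 and 4 of 10 at an unadjusted p under 0.05 for glucose, glucose+lipid and both treatments, against 14.9%, 11.8% and 11.4% of all tested genes. Their median log2 fold change was 0.58 for glucose, 0.19 for glucose+lipid and 0.36 over both treatments, and 10, 7 and 9 of 10 lay above 0. Without glucose+lipid replicate 1 the medians were 0.58, 0.33 and 0.45, with 4, 3 and 4 of 10 at an unadjusted p under 0.05, against 16.2%, 11.1% and 13.1% of all tested genes in that fit. Between PBS H/I and PBS J/K the median was 0.39, with 9 of 10 above 0. PBS replicate 3, a control of glucose, had the lowest summed level of the 12 listed genes. It stood at 350.2 FPKM, against 488.3 to 752.7 FPKM in the other libraries. The part of that library in the medians was not tested. Ccr9, a chemokine receptor of thymus-homing progenitors, measured 1.06 and 2.45 FPKM after glucose and 2.67 and 2.07 FPKM after glucose+lipid, against 0.035 to 0.58 FPKM in PBS. Its log2 fold change over both treatments was 1.20 ± 0.25 (SE, n = 4 each; limma adjusted p = 0.147), and 1.08 without glucose+lipid replicate 1. Blnk, a B cell signalling adaptor, stood at 0.93 (limma adjusted p = 0.281), and at 0.66 without that library.

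Of 20 long-term stem cell genes, all tested, 0 passed (limma). For glucose, glucose+lipid and both treatments, 1, 2 and 2 of 20 had an unadjusted p under 0.05. Over all tested genes these shares were 14.9%, 11.8% and 11.4%. The medians were 0.28, 0.078 and 0.18 in the same order, with 19, 12 and 19 of 20 above 0. Without glucose+lipid replicate 1 they were 0.28, 0.24 and 0.31, with 19, 16 and 19 of 20 above 0. There were then 5, 8 and 9 of 20 at an unadjusted p under 0.05, against 16.2%, 11.1% and 13.1% of all tested genes. Between PBS H/I and PBS J/K the median was 0.069, with 13 of 20 above 0. In that comparison 2 of 20 had an unadjusted p under 0.05, against 17.2% of all tested genes. Of 7 erythroid markers, Hba-a1 passed over both treatments (log2 fold change 1.57 ± 0.19, SE, n = 4 each; limma adjusted p = 0.0115), as did 0.268% of all tested genes. It also passed between PBS H/I and PBS J/K, by more (log2 difference 2.77 ± 0.26, SE, n = 2 each; limma adjusted p = 0.0173), as did 0.0503% of all genes. It measured 48.6 and 65.0 FPKM after glucose and 373.6 and 667.8 FPKM after glucose+lipid, against 164.2 and 134.2 FPKM in PBS H/I and 21.3 and 20.5 FPKM in PBS J/K. Both glucose libraries lie above PBS J/K but below PBS H/I, and the glucose value was 1.39 against PBS J/K and -1.38 against PBS H/I.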
